A study of Mus musculus with 18 samples.

Results

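The genes described here are 10 immediate early response genes, Fos, Fosb, Fosl1, Jun, Junb, Egr1, Ier2, Ier3, Dusp1 and Atf3, out of 54446 gene identifiers in each count file. They were selected by name, as textbook members of the response, with the levels and log2 fold changes measured in these same libraries for all 6 groups in view, and no threshold was set on those values. How many of them moved is therefore a description and supports nothing by itself.

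Immediate early genes are the genes that a cell transcribes within minutes of a growth factor, stress or change of its surroundings, from factors that are already present and without new protein synthesis. Their mRNAs are unstable and carry AU-rich elements, so their levels follow recent signalling by ERK and the stress kinases JNK and p38 closely. Many encode transcription factors, among them the FOS and JUN proteins that pair to form AP-1, and others, such as DUSP1, switch the signal off again.

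The data are mRNA counts from mouse embryoid bodies, suspended clumps in which embryonic stem cells differentiate. Mettl14 or Mettl3, the genes of the paired subunits that write N6-methyladenosine (m6A) on mRNA, was knocked out conditionally (CKO) in C57BL/6 stem cells. The question of the series is what blocking the H3K27me3 methyltransferase does to gene expression after loss of Mettl14. There were 6 groups of 3 libraries. The Mettl14 line gave Mettl14 KO with GSK343, Mettl14 KO, and Mettl14 control. The Mettl3 line gave Mettl3 KO with GSK-J4, Mettl3 KO, and Mettl3 control. GSK343 blocks EZH2, which places H3K27me3, and GSK-J4 blocks KDM6A and KDM6B, which remove it. The cells were kept in LIF, CHIR99021 and PD0325901, a MEK inhibitor, and were then differentiated for 7 days with DMSO or 5 µM of inhibitor. No control was given an inhibitor, so the effect of each compound was measured on a knockout background only. The labels do not say that replicates were separate cultures, so a p-value measures the spread between these libraries, which may be technical.

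The 4 promoters below belong to the genes with the largest changes in the 2 lines, Fos with GSK343 and Jun, Junb and Atf3 with GSK-J4. Each runs from 250 bases before to 50 bases after the start in RefSeq (GRCm38.p6), 5′ to 3′ on the gene's own strand. Capitals mark TGACG on either strand (the core of a cAMP response element, written CGTCA where it lies on the other strand). They also mark TGACATCA (the variant site of the Jun promoter, bound by JUN and ATF dimers) and TATAAA (the TATA box, a core promoter element). The windows are chr12:85473640-85473939 (plus strand) for Fos, chr4:95052173-95052472 (minus) for Jun, chr8:84978699-84978998 (minus) for Junb and chr1:191183284-191183583 (minus) for Atf3. The Atf3 window lies at a start inside the annotated gene (chr1:191170296-191218039), while those of Fos, Jun and Junb contain the 5′ end of the gene.
Fos: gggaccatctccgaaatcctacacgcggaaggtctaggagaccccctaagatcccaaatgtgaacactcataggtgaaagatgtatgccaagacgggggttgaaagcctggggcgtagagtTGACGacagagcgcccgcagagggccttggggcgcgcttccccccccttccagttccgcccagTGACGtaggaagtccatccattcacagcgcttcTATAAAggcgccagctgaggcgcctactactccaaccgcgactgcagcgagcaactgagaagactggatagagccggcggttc
Jun: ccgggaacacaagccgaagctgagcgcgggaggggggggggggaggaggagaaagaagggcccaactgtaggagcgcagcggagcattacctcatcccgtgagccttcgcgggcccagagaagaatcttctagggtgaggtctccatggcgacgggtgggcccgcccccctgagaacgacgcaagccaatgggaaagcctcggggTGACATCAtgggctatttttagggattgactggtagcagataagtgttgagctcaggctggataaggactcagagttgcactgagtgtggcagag
Junb: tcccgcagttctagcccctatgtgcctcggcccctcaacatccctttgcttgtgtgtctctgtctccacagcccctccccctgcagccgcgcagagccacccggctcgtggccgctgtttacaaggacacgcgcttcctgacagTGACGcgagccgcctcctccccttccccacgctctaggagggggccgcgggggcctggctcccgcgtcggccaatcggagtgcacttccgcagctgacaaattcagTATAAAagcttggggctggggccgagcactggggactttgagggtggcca
Atf3: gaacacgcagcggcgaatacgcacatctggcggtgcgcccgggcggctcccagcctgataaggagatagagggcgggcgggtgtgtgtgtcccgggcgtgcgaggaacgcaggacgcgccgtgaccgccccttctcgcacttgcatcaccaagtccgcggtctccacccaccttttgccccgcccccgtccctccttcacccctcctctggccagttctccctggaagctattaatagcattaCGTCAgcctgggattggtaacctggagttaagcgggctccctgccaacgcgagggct

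The Fos window held TGACG 66 and 129 bases before the start and TATAAA 33 bases before it. The Jun window held TGACATCA 45 bases before the start, a motif found in 3.37% of all 32544 promoters of this length. TGACG was in 5 of the 7 members that had an entry (Fos, Fosb, Junb, Dusp1 and Atf3) and in 20.9% of all promoters. TATAAA was in the windows of Fos and Junb and in 13.6% of all promoters. In Junb it began at base 1 of the RefSeq start. The 5′ end of Junb in the gene annotation (chr8:84978718, minus strand) lies downstream of that RefSeq start. TATAAA is therefore upstream of the annotated 5′ end, as in Fos, and its distance depends on which start is used. The full palindrome TGACGTCA, which contains TGACG on both strands, was in Dusp1 alone of the 7 and in 1.80% of all. The AP-1 site TGACTCA (5.19% of all) and the CArG box, the site of serum response factor (1.64% of all), were not among the letters of any of the 7 windows. Sites more than 250 bases before the start were not searched, and Fosl1, Egr1 and Ier2 had no entry, so these absences hold for the windows only. A match is a string of letters and was not measured as a bound site.

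Depth differed widely, from 721853 to 20714764 counts with GSK343, 1303697 to 8688596 in Mettl14 KO and 8288902 to 10285737 in Mettl14 controls, and from 3395675 to 8289423 with GSK-J4, 17544904 to 32540164 in Mettl3 KO and 21615674 to 29496824 in Mettl3 controls. Replicate 3 of GSK343 and replicate 3 of Mettl14 KO were the shallowest libraries. In these a floor of 3 counts stood at 4.35 and 2.63 CPM (counts scaled to a library of 1000000, here with TMM factors over the 18 libraries), so Fos, Fosb and Atf3 rest on few reads there. The GSK-J4 libraries stood apart from all others, where the mitochondrial genome took 0.842 ± 0.146% of counts (SD, n = 3), while the means of the other 5 groups ran from 3.25 to 4.32%. Markers of mesenchyme summed to 8827 to 16374 CPM with GSK-J4 against 28023 to 32369 CPM in Mettl3 KO, and 17181 to 26166 CPM in Mettl3 controls, and none of the 10 markers was at 0 in all 3 libraries of a group, though with GSK-J4 Lum was at 0 in replicates 1 and 3 and Dcn in replicate 2. Most of the GSK-J4 sum was Fn1, at 6684, 14625 and 7747 CPM. The collagens were far lower, with Col1a1 at 147 ± 68.5 CPM with GSK-J4 and 6400 ± 467 CPM in Mettl3 KO, and Col3a1 at 15.8 ± 20.2 CPM with GSK-J4 and 1093 ± 260.0 CPM in Mettl3 KO. Markers of epithelium summed to 12.6 to 144 CPM with GSK-J4 against 1.12 to 10.3 CPM in Mettl3 KO, with Cldn6 at 0 in all Mettl3 KO libraries. Sums of the endothelial, neural, cardiac muscle and embryonic stem cell markers stayed at or under 53.5 CPM in every library, those of macrophages at or under 211 CPM (C1qa and C1qb at 0 in all 3 GSK343 libraries), and those of erythroid cells at or under 1.70 CPM. Endothelial sums were 26.9 to 35.2 CPM with GSK-J4, 11.4 to 18.5 CPM in Mettl3 KO and 10.3 to 18.7 CPM in Mettl3 controls. Cardiac muscle sums were 9.72 to 47.6, 1.70 to 5.13 and 4.16 to 11.9 CPM in the same order. Neural and embryonic stem cell sums with GSK-J4 overlapped those of Mettl3 KO. The part of these differences in the changes below was not tested, and in bulk RNA fewer cells of a type cannot be told apart from less RNA per cell. Mettl14 had 20.6 ± 3.73 CPM in Mettl14 KO and 18.1 ± 0.876 CPM in its control, and Mettl3 had 16.9 ± 9.54 CPM in Mettl3 KO and 24.3 ± 8.48 CPM in its control, neither difference being called. These counts cover the whole gene, and the labels do not say which exons were removed, so they do not check the knockout.

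All 10 genes had enough reads to be tested in every comparison. Per kilobase of exon, which allows different genes to be compared, Ier3 was the most abundant of the 10 in the Mettl14 line, at 325 ± 31.7 CPM per kb with GSK343, 359.5 ± 109 in Mettl14 KO and 310.2 ± 70.9 in Mettl14 controls. In Mettl3 KO Ier3 stood at 56.3 ± 5.29 CPM per kb, followed by Jun (50.3 ± 3.29), Ier2 (42.6 ± 5.37) and Egr1 (35.4 ± 5.28), each with a range of mean ± SD that overlaps that of the next. With GSK-J4 Jun led at 103 ± 18.9 CPM per kb, followed by Junb (89.3 ± 30.8) and Ier3 (79.5 ± 37.0), whose ranges of mean ± SD overlap that of Jun. Fosb was the least abundant in every group, with means between 1.45 and 1.73 CPM per kb. The summed level of the 10 genes was 1237 ± 31.9 CPM with GSK343, 1023 ± 146 CPM in Mettl14 KO and 1019 ± 155 CPM in Mettl14 controls. In the Mettl3 line it was 1018 ± 288 CPM with GSK-J4, 670.3 ± 40.1 CPM in Mettl3 KO and 684 ± 41.0 CPM in Mettl3 controls.

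**Figure D1:**
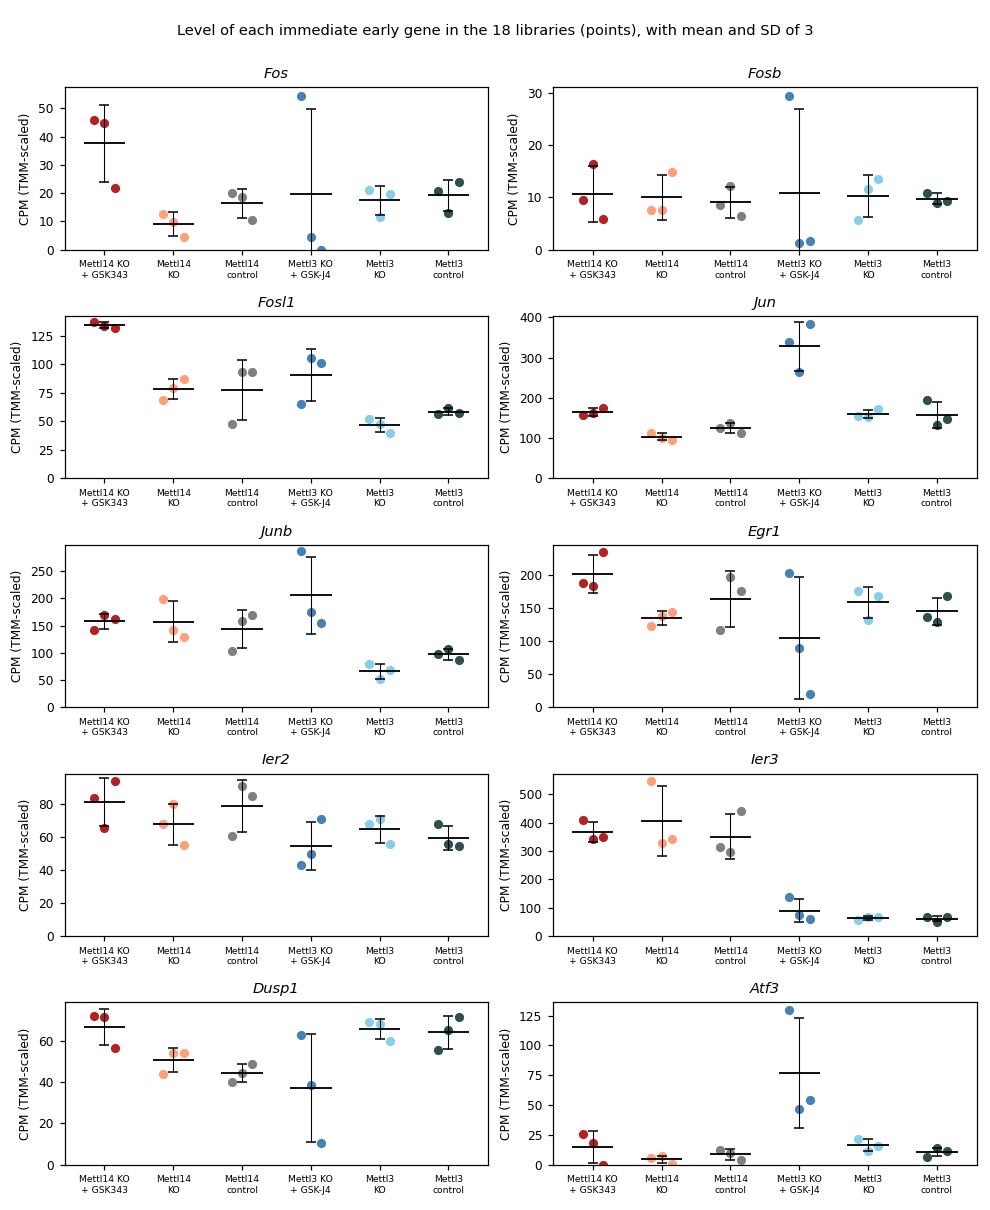
Level of each of the 10 genes in the 18 libraries, in TMM-scaled CPM on linear axes that start at 0, by group; points are libraries, horizontal bars the mean of 3 and vertical bars the SD, which is clipped at 0. Fos has its highest mean with GSK343 and its highest single library with GSK-J4, Jun, Junb and Atf3 have their highest means with GSK-J4, and Ier3 is high throughout the Mettl14 line.

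In the Mettl14 line edgeR called none of the 10 genes for the knockout by itself, with log2 fold changes from -0.75 for Atf3 to 0.24 for Ier3. The knockout given GSK343 had more Fos, Fosl1, Jun, Egr1 and Dusp1 mRNA than the knockout without it in every library. The largest of these by fold change was in Fos, at 37.6 ± 13.7 CPM with GSK343, 8.92 ± 4.21 CPM in Mettl14 KO and 16.4 ± 5.15 CPM in the control (SD, n = 3 each). Junb and Ier3 showed no such difference. Since the members were listed with the changes of both lines known, any p-value given for a member describes its fold change against the spread between libraries and supports nothing about the list. Log2 fold changes carry the standard error (SE) of the edgeR fit. Comparisons within a line share libraries, so their values are set side by side and are not independent.

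Fos (ENSMUSG00000021250.13, chr12:85473890-85477273), the founding immediate early gene and the AP-1 subunit that needs a JUN partner to bind DNA, had 46.0, 44.9 and 21.8 CPM in GSK343 replicates 1 to 3. It had 12.7, 9.65 and 4.38 CPM in Mettl14 KO and 19.9, 18.8 and 10.5 CPM in Mettl14 controls. In the shallow replicate 3 libraries these levels stand for 15 reads with GSK343 and 5 reads in Mettl14 KO. Every GSK343 library was above every Mettl14 KO and every control library, while the knockout and control libraries overlapped, with the knockout in the lower part of the range. The log2 fold change was 2.01 ± 0.43 for GSK343 against Mettl14 KO, 1.27 ± 0.41 for GSK343 against control and -0.74 ± 0.42 for Mettl14 KO against control.

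Fosl1 (ENSMUSG00000024912.5, chr19:5447547-5455946) encodes FRA-1, a FOS relative without a transactivation domain that accumulates under sustained ERK signalling. It had 138, 134 and 132 CPM with GSK343, 68.8, 79.4 and 86.8 CPM in Mettl14 KO and 47.5, 93.2 and 93.0 CPM in controls. The 3 GSK343 libraries had a coefficient of variation of 2.07% and lay above all of the other 6. Its log2 fold change was 0.79 ± 0.27 against Mettl14 KO and 0.81 ± 0.26 against control, and 0.02 ± 0.26 for Mettl14 KO against control. Fosl1 overlaps Ccdc85b on the other strand, and the strand setting of the counting is not given in the sources used here, so reads of the pair cannot be told apart. Ccdc85b itself had a log2 fold change of -0.08 ± 0.47 for GSK343 against Mettl14 KO.

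Fosb, a FOS relative known for its induction in neurons and osteoblasts, had 9.52, 16.4 and 5.80 CPM with GSK343, 7.58, 7.51 and 14.9 CPM in Mettl14 KO and 8.46, 12.3 and 6.41 CPM in controls. The 3 groups overlapped throughout, and the log2 fold change was 0.23 ± 0.55 for GSK343 against Mettl14 KO and 0.10 ± 0.54 for Mettl14 KO against control.

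Jun (ENSMUSG00000052684.4, chr4:95049034-95052222), the AP-1 subunit that JNK activates and that drives its own promoter, had 157, 161 and 176 CPM with GSK343, 113, 101 and 96.4 CPM in Mettl14 KO and 126, 138 and 114 CPM in controls. The 3 groups did not overlap: every GSK343 library was above every control, and every Mettl14 KO library was below every control. This gave a log2 fold change of 0.66 ± 0.22 for GSK343 against Mettl14 KO, 0.41 ± 0.22 for GSK343 against control and -0.25 ± 0.22 for Mettl14 KO against control.

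Junb (ENSMUSG00000052837.6, chr8:84974484-84978718) encodes a JUN relative that can oppose JUN in growth control. It had 142, 169 and 163 CPM with GSK343, 199.6, 142 and 129.8 CPM in Mettl14 KO and 103, 158 and 169.6 CPM in controls. The groups overlapped, and the log2 fold change was -0.01 ± 0.25 for GSK343 against Mettl14 KO and 0.16 ± 0.25 for Mettl14 KO against control.

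Egr1, the zinc-finger factor that serum response factor and ERK switch on, had 188, 184 and 235 CPM with GSK343, 124, 138 and 145 CPM in Mettl14 KO and 117, 198 and 177 CPM in controls. The GSK343 libraries were above all Mettl14 KO libraries but overlapped the controls. In the fit the log2 fold change was 0.57 ± 0.24 for GSK343 against Mettl14 KO, 0.32 ± 0.24 for GSK343 against control and -0.25 ± 0.24 for Mettl14 KO against control.

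Dusp1 (ENSMUSG00000024190.6, chr17:26505590-26562128), the phosphatase that inactivates p38, JNK and ERK, had 71.9, 71.4 and 56.6 CPM with GSK343, 44.2, 54.2 and 54.4 CPM in Mettl14 KO and 40.0, 44.4 and 48.7 CPM in controls. The GSK343 libraries lay above all 6 others, and the lowest of them, the shallow replicate 3, rests on 39 reads. Dusp1 had a log2 fold change of 0.41 ± 0.26 for GSK343 against Mettl14 KO, 0.62 ± 0.26 for GSK343 against control and 0.22 ± 0.26 for Mettl14 KO against control. Dusp1 overlaps Ergic1 on the other strand, which has more counts (42276 over the 18 libraries, against 15235 for Dusp1) and had a log2 fold change of 0.37 ± 0.23 for GSK343 against Mettl14 KO and 0.11 ± 0.23 for GSK343 against control, so its part in these values cannot be told apart.

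Atf3 (ENSMUSG00000026628.13, chr1:191170296-191218039), a stress-induced repressor of the ATF and CREB family, had 25.9, 18.2 and 0 CPM with GSK343, 5.52, 7.05 and 0.877 CPM in Mettl14 KO and 12.4, 9.58 and 3.87 CPM in controls. Replicates 1 and 2 with GSK343 were above all other libraries of the line. Replicate 3 had no read, which at its depth allows up to 4.35 CPM, and in Mettl14 KO replicate 3 the level is 1 read. Its log2 fold change was 1.69 ± 0.74 for GSK343 against Mettl14 KO, 2.1 without GSK343 replicate 3 and 1.16 without GSK343 replicate 1.

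Ier2 and Ier3 encode small proteins of the early response, and IER3 modulates cell death and ERK signalling. Ier2 had 65.4 to 94.3 CPM with GSK343, 55.2 to 80.1 CPM in Mettl14 KO and 60.9 to 90.9 CPM in controls, with log2 fold changes of 0.23 ± 0.26 for GSK343 against Mettl14 KO and -0.18 ± 0.26 for Mettl14 KO against control. Ier3 had 409, 343 and 351 CPM with GSK343, 548, 329 and 343 CPM in Mettl14 KO and 314, 296 and 443 CPM in controls. Its log2 fold change was -0.15 ± 0.25 for GSK343 against Mettl14 KO and 0.24 ± 0.24 for Mettl14 KO against control. Both genes overlapped between the 3 groups.

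By count, 5 of the 10 genes were higher with GSK343 than in Mettl14 KO with no overlap between libraries (Fos, Fosl1, Jun, Egr1 and Dusp1) and none lower, where 3.64% of 18039 genes were higher and 4.83% lower. Against control there were 4 (Fos, Fosl1, Jun and Dusp1) and again none lower, where 3.45% of genes were higher and 7.68% lower. Jun was lower in Mettl14 KO than in control without overlap, as were 4.93% of genes, and no member was higher, as 2.64% were. The median log2 fold change of the 10 was 0.49 for GSK343 against Mettl14 KO (-0.03 over all genes), 0.37 for GSK343 against control (-0.01) and -0.08 for Mettl14 KO against control (0.01). With an adjusted p under 0.05 in edgeR's quasi-likelihood test across all 13882 genes, the rule for a call used throughout, none of the 10 was called in any comparison of this line. The share called was 0.0288% of all genes for GSK343 against Mettl14 KO, 0.166% for GSK343 against control (0.151% higher, 0.0144% lower) and 0% for Mettl14 KO against control. At an unadjusted p under 0.05 there were 5, 3 and 0 of the 10 in the same order, among 797, 602 and 208 genes in all. DESeq2 called 1 of the 10, Fos, for GSK343 against Mettl14 KO, when it called 57 of 25569 genes, and none in the other comparisons of the line. The list was drawn up with these contrasts known, so nothing is read from these shares.

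In the Mettl3 line none of the 10 was called for the knockout by itself either, with log2 fold changes from -0.56 for Junb to 0.61 for Atf3, and GSK-J4 divided them. Atf3, Junb, Jun and Fosl1 rose in the knockout given GSK-J4, by 2.24, 1.67, 1.06 and 0.99 on the log2 scale, and were above the untreated knockout in all 3 libraries. Fos, Fosb, Egr1 and Dusp1 varied from library to library by far more than in any other group. They were above or within the range of the untreated knockout in replicate 1 and under it in replicates 2 and 3. Ier2 and Ier3 were not called.

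**Figure D2:**
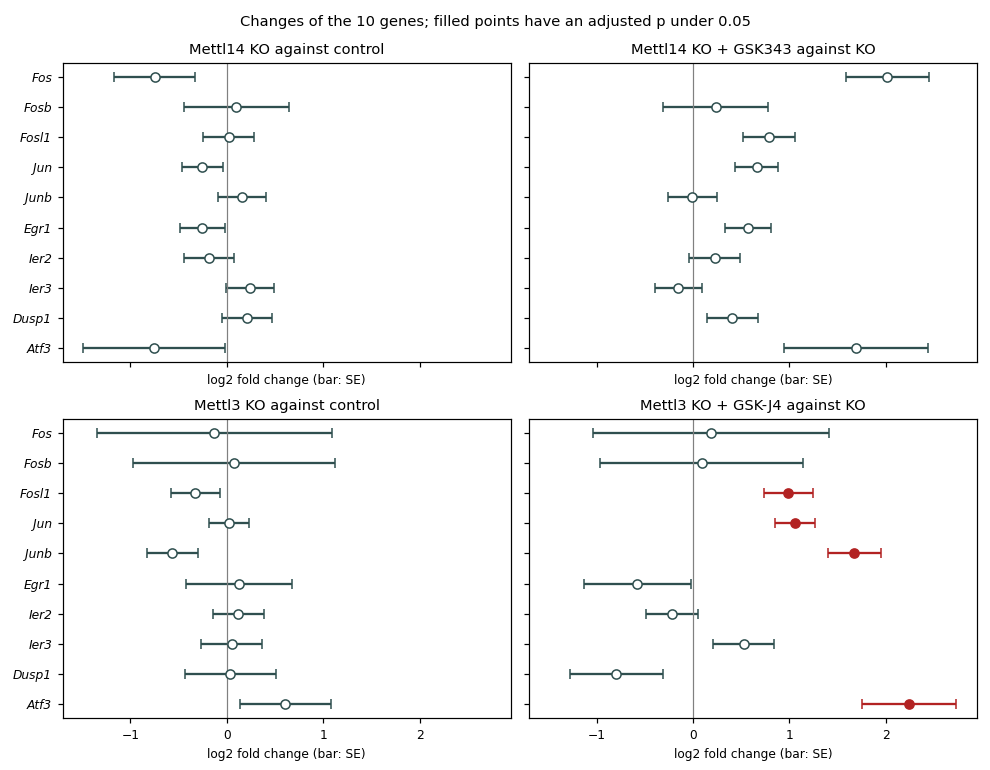
Log2 fold change of each of the 10 genes in 4 comparisons from the edgeR fit of each line (x axis; bars are SE; filled points have an adjusted p under 0.05 over all genes). With GSK343 Fos and Atf3 lie farthest to the right and no point is filled; with GSK-J4 Fosl1, Jun, Junb and Atf3 are filled.

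Atf3 had 129.6, 47.0 and 54.2 CPM with GSK-J4, 21.8, 11.8 and 16.0 CPM in Mettl3 KO and 6.92, 14.1 and 11.5 CPM in Mettl3 controls. Every GSK-J4 library was above every other library of the line. By edgeR its log2 fold change was 2.24 ± 0.49 against Mettl3 KO (adjusted p = 0.0122) and 2.85 ± 0.50 against control (adjusted p = 0.00411). The call against Mettl3 KO was lost without Mettl3 KO replicate 2 (adjusted p = 0.0830) or replicate 3 (adjusted p = 0.0577), and the log2 fold change was 1.51 without GSK-J4 replicate 1, the library with most Atf3. Over the 12 settings tried for Atf3 against Mettl3 KO the adjusted p ran from 3.43e-05 to 0.0830.

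Junb had 286, 175 and 155 CPM with GSK-J4, 78.4, 50.9 and 68.0 CPM in Mettl3 KO and 98.3, 107 and 86.2 CPM in controls. The lowest GSK-J4 library was above the highest of the other 6. Junb rose by 1.67 ± 0.27 on the log2 scale against Mettl3 KO (adjusted p = 0.00245), which was called in all 12 settings tried, with adjusted p up to 0.0264. Against control it rose by 1.11 ± 0.27 (adjusted p = 0.0226). Without GSK-J4 replicate 1 the change against control was 0.67 and was not called (adjusted p = 0.0863). Leaving out any 1 control library also lost that call (adjusted p 0.0642 to 0.123). Junb overlaps Prdx2 on the other strand, whose own log2 fold change was -0.59 ± 0.23 against Mettl3 KO (adjusted p = 0.114).

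Jun had 339, 263 and 382 CPM with GSK-J4, 156, 153 and 172 CPM in Mettl3 KO and 194, 133 and 147 CPM in controls. All 3 GSK-J4 libraries were above the other 6, and replicate 1 was not the highest. Jun rose by 1.06 ± 0.21 on the log2 scale against Mettl3 KO (adjusted p = 0.00710) and 1.08 ± 0.21 against control (adjusted p = 0.00683). Without Mettl3 KO replicate 2 the call against Mettl3 KO was lost (log2 fold change 0.90, adjusted p = 0.0719, the highest of the 12 settings, which began at 9.50e-06).

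Fosl1 had 64.9, 106 and 101 CPM with GSK-J4, 52.3, 47.6 and 40.2 CPM in Mettl3 KO and 56.8, 61.8 and 57.1 CPM in controls. Here replicate 1 was the lowest of the GSK-J4 libraries, close above the controls, and no GSK-J4 library overlapped the other 6. Fosl1 had a log2 fold change of 0.99 ± 0.26 against Mettl3 KO (adjusted p = 0.0283) and 0.66 ± 0.26 against control (adjusted p = 0.120). The call against Mettl3 KO is not a firm one, since it was lost when any Mettl3 KO library or GSK-J4 replicate 2 or 3 was left out (adjusted p 0.0526 to 0.154).

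Fos had 54.2, 4.58 and 0 CPM with GSK-J4, 21.2, 11.7 and 19.7 CPM in Mettl3 KO and 20.6, 13.0 and 23.9 CPM in controls. Replicate 1 with GSK-J4 was the highest of the 18 libraries for Fos, and replicates 2 and 3 were the lowest of this line. Replicate 3 had no Fos read, which at its depth allows up to 0.512 CPM. Against Mettl3 KO its log2 fold change was 0.18 ± 1.22 (adjusted p = 0.942), and -2.97 without replicate 1 (adjusted p = 0.0989).

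Fosb followed the same order of libraries, with 29.4, 1.22 and 1.71 CPM with GSK-J4, 5.65, 11.7 and 13.5 CPM in Mettl3 KO and 10.9, 8.90 and 9.38 CPM in controls. Its log2 fold change against Mettl3 KO was 0.09 ± 1.05 (adjusted p = 0.967) with all libraries and -2.91 without replicate 1 (adjusted p = 0.0309), so that 1 library sets its sign. Over the 12 settings its adjusted p ran from 0.0309 to 1.

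Egr1 had 203, 89.8 and 20.3 CPM with GSK-J4, 176, 132 and 169 CPM in Mettl3 KO and 138, 129.9 and 169 CPM in controls. Dusp1 had 62.7, 38.5 and 10.4 CPM with GSK-J4, 69.1, 68.4 and 60.1 CPM in Mettl3 KO and 55.5, 65.3 and 71.7 CPM in controls. In both genes replicate 1 lay within or just above the untreated range and replicates 2 and 3 lay below it. The log2 fold change against Mettl3 KO was -0.58 ± 0.56 for Egr1 (adjusted p = 0.534) and -0.80 ± 0.48 for Dusp1 (adjusted p = 0.301). Without replicate 1 it was -1.62 for Egr1 (adjusted p = 0.0478) and -1.51 for Dusp1 (adjusted p = 0.0498). Those were the lowest adjusted p-values of the 12 settings, whose highest were 0.679 and 0.452 in the same order. Ergic1, which overlaps Dusp1, had a log2 fold change against Mettl3 KO of -1.23 ± 0.28 (adjusted p = 0.0156).

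Ier3 had 138, 72.4 and 59.7 CPM with GSK-J4, 57.1, 68.7 and 65.3 CPM in Mettl3 KO and 68.2, 49.6 and 66.4 CPM in controls, and replicates 1 and 2 with GSK-J4 were above the other 6 libraries while replicate 3 lay among them (log2 fold change against Mettl3 KO 0.53 ± 0.32, adjusted p = 0.298; -0.05 without replicate 1). In plain CPM, without TMM scaling, all 3 GSK-J4 libraries were above the other 6 for Ier3. Ier2 had 43.3, 49.5 and 70.9 CPM with GSK-J4, 67.7, 71.1 and 55.5 CPM in Mettl3 KO and 67.8, 55.9 and 54.9 CPM in controls, with a log2 fold change of -0.22 ± 0.27 (adjusted p = 0.630). For Ier2 replicate 1 was the lowest of the GSK-J4 libraries.

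GSK-J4 replicate 1 was the highest of its group for 7 of the 10 genes and the lowest for Fosl1 and Ier2. Against the mean of Mettl3 KO, in log2(CPM + 1), it had 8 genes above and 2 below, with a median of 1.09. Replicate 2 had 5 above and 5 below (median -0.10), as had replicate 3 (median 0.02). The 3 GSK343 libraries were more alike, with 8, 8 and 7 genes above the mean of Mettl14 KO and medians of 0.48, 0.56 and 0.31. The median coefficient of variation of the 10 genes was 53.0% with GSK-J4, against 13.98% in Mettl3 KO and 13.4% in Mettl3 controls. Over all genes it was 73.7% with GSK-J4, 30.7% in Mettl3 KO and 28.2% in Mettl3 controls. The spread was thus wider with GSK-J4 over all genes as well as in the 10.

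**Figure D3:**
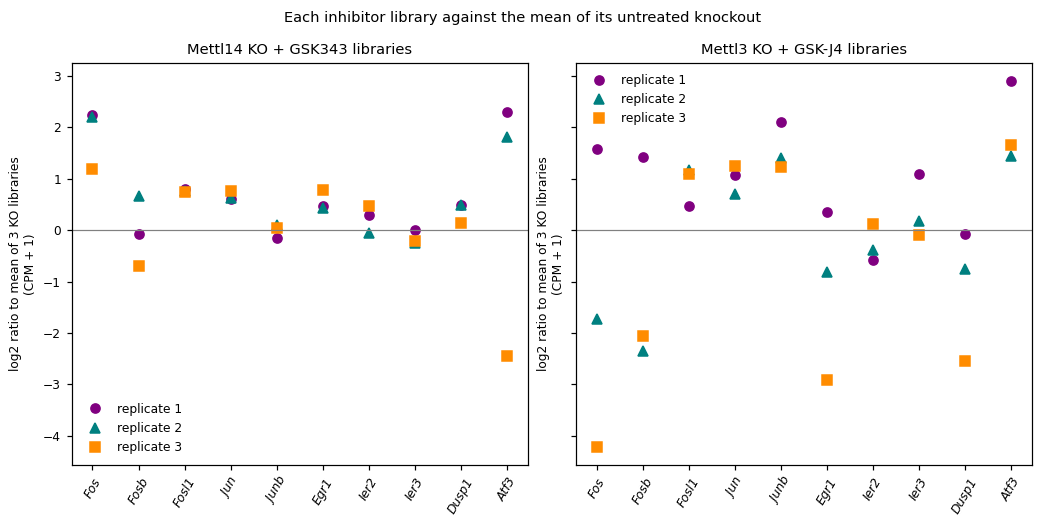
Log2 ratio of each inhibitor library to the mean of its untreated knockout, in log2(CPM + 1) (y axis), for each of the 10 genes, with GSK343 on the left and GSK-J4 on the right. The GSK343 libraries lie farthest apart for Fos, Fosb and Atf3, and replicate 3 is the lowest for these and for Fosl1 and Dusp1. With GSK-J4 the replicates separate for Fos, Fosb, Egr1 and Dusp1. There replicate 1 is at or above 0 or close to it and replicates 2 and 3 are below.

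By count, 4 of the 10 were called higher with GSK-J4 than in Mettl3 KO and none lower, when 13.0% of all 16782 genes were called (3.96% higher and 9.07% lower). Against control 3 were called higher (Atf3, Jun and Junb) and none lower, when 11.4% of genes were called (3.16% higher and 8.25% lower). DESeq2 called 4 of the 10 in each of these comparisons, when it called 4431 and 4360 of 30925 genes in the same order. Without GSK-J4 replicate 1 there were 7 member calls against Mettl3 KO, the 4 rises and falls of Fosb, Egr1 and Dusp1. Over all genes, 1032 to 3061 were called against Mettl3 KO in the fits with 1 library left out. The fit without GSK-J4 replicate 1 tested 18894 genes, and its own count lies within that range. The ends of the range came from the fits without Mettl3 KO replicate 1 and without GSK-J4 replicate 2. The libraries did not overlap for Atf3, Junb, Jun and Fosl1 in either comparison, all higher, where 9.45% of genes were so against Mettl3 KO (21.8% lower) and 9.04% against control (22.8% lower). These shares are set beside the counts only, since the list was drawn up with the changes known. The median log2 fold change of the 10 was 0.35 against Mettl3 KO (-0.06 over all genes) and -0.13 without GSK-J4 replicate 1.

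For Mettl3 KO against control the log2 fold changes ran from -0.56 ± 0.27 for Junb to 0.61 ± 0.47 for Atf3, with a median of 0.04 (-0.01 over all genes). Fosl1 and Junb were lower in every knockout library than in every control, as were 6.28% of genes (6.23% higher). Fosl1 had 46.7 ± 6.10 CPM in Mettl3 KO and 58.6 ± 2.79 CPM in control, with a log2 fold change of -0.33 ± 0.25 (adjusted p = 1). edgeR called none of the 10 and 0% of all genes in this comparison, with 0 of the 10 and 315 of all genes at an unadjusted p under 0.05, and DESeq2 called none of the 10 and 32 genes.

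Ier3 distinguished the lines before any treatment. It had 314, 296 and 443 CPM in Mettl14 controls, against 68.2, 49.6 and 66.4 CPM in Mettl3 controls, and all 9 libraries of the Mettl14 line were above all 9 of the Mettl3 line. The log2 fold change between the controls was 2.51 ± 0.29 (adjusted p = 2.07e-05; up to 0.000851 over 10 settings), and Ier3 was the only 1 of the 10 called, when 0.913% of 16326 genes were (0.760% higher, 0.153% lower). No overlap in the higher direction was found in 8.90% of genes. Dusp1 was lower in every Mettl14 control (40.0 to 48.7 CPM) than in every Mettl3 control (55.5 to 71.7 CPM), as were 8.17% of genes, with a log2 fold change of -0.53 ± 0.38 (adjusted p = 1). The labels do not tell the line apart from the time or batch in which it was grown and sequenced, so these cannot be told apart here.

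The difference of the inhibitor effects, GSK343 in Mettl14 KO minus GSK-J4 in Mettl3 KO, was called for 1 of the 10, Junb, when 10.2% of all genes were called (8.30% higher, 1.92% lower). Junb had 158 ± 14.2 CPM with GSK343 and 157 ± 37.4 CPM in Mettl14 KO, and 205 ± 70.8 CPM with GSK-J4 and 65.8 ± 13.9 CPM in Mettl3 KO. The difference was -1.64 ± 0.37 on the log2 scale (adjusted p = 0.00585). It was -1.34 without GSK-J4 replicate 1 (adjusted p = 0.0140), and its adjusted p ran from 0.000122 to 0.0279 over the 16 settings tried. Over all genes, 1210 to 2541 were called for this difference in the fits with 1 library left out. The fit without GSK-J4 replicate 1 tested 17834 genes, and its own count lies within that range. Without GSK-J4 replicate 1 the difference was also called for Fos, at 4.87 (adjusted p = 0.00316, up to 0.551 over the settings), and for Fosb, Egr1 and Dusp1. With all libraries none of these was called, Fos having 1.90 ± 1.32 (adjusted p = 0.416). The compounds differed together with the line and the deleted gene, which cannot be told apart. For the difference of the knockout effects edgeR called none of the 10 and 0% of all genes, with 0 of the 10 and 366 genes at an unadjusted p under 0.05, and DESeq2 called none of the 10 and 20 genes.

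Within the AP-1 families the most abundant mRNA was the same in every library. Fosl1 led Fos, Fosb and Fosl2 in all 18 libraries per kilobase of exon, with 65.4 ± 4.75% of their sum with GSK343, 62.7 ± 5.04% in Mettl14 KO and 58.3 ± 12.0% in Mettl14 controls. Fos made up 15.5 ± 4.64% with GSK343, 6.63 ± 4.06% in Mettl14 KO and 11.2 ± 4.88% in controls. With GSK-J4 the Fos share ran from 0 to 28.3% between libraries, against 12.1 to 18.3% in Mettl3 KO. Jund, the JUN family member whose mRNA is kept at a steady level in many cells, led Jun and Junb in all 18 libraries. Its share was 44.1 ± 4.91% with GSK-J4 and 60.7 ± 5.39% in Mettl3 KO, where Junb made up 25.6 ± 5.43% with GSK-J4 and 14.2 ± 2.72% in Mettl3 KO.

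**Figure D4:**
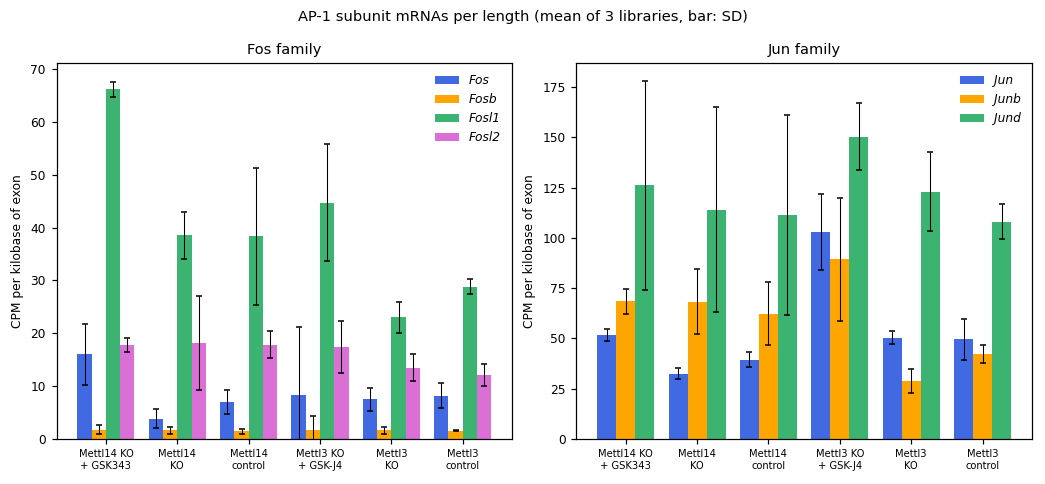
Mean level of FOS family mRNAs (left) and JUN family mRNAs (right) in CPM per kilobase of exon, by group, on axes that start at 0; bars are the SD of 3 libraries, clipped at 0. Fosl1 is the tallest FOS bar and Jund the tallest JUN bar in each group.

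Over the 18 libraries the gene whose pattern lay closest to that of Fos, among 8989 protein-coding genes with a mean of 10 CPM or more, was Nr4a1, an immediate early nuclear receptor. The measure was the root mean square difference in log2(CPM + 1) after each gene was centred on its own mean, and it was 0.576 for Nr4a1, against a median of 1.38 over all genes ranked. Nr4a1 had 73.0, 63.4 and 63.9 CPM with GSK343 and 44.6, 36.3 and 42.1 CPM in Mettl14 KO. It had 102, 11.8 and 2.05 CPM with GSK-J4 and 58.2, 24.9 and 44.0 CPM in Mettl3 KO, the same order of libraries as Fos within GSK-J4. Fen1 (0.675), Malt1 (0.696), Coq10a (0.698) and Fam117a (0.700) came next. Among the 10 genes Egr1 (0.784), Dusp1 (0.889) and Fosb (0.947) lay nearest to Fos, and Atf3 (2.05) lay farthest.

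The pathway around these genes was described with 8 lists. Of 38 other immediate early genes, 10 were called higher with GSK-J4 than in Mettl3 KO and 1 lower (over all genes 3.96% were called higher and 9.07% lower), with a median log2 fold change of 0.49. Ppp1r15a (GADD34, which reverses the block of translation in stress) had 502 ± 152 CPM with GSK-J4 and 106 ± 16.0 CPM in Mettl3 KO, with a log2 fold change of 2.28 ± 0.25 (adjusted p = 0.000209). Dusp5, a nuclear ERK phosphatase, rose by 2.78 ± 0.43 (adjusted p = 0.00187), Csrnp1 by 2.59 ± 0.47 (adjusted p = 0.00468) and Klf6 by 1.35 ± 0.25 (adjusted p = 0.00547). Socs3, the feedback inhibitor of cytokine receptors, fell by 2.17 on the log2 scale (adjusted p = 0.0419). All 11 of these calls were kept without GSK-J4 replicate 1, when 11 were called higher and 5 lower. Over all genes, 1032 to 3061 were called in the fits with 1 library left out. The count of the fit without GSK-J4 replicate 1, of 18894 genes tested, lies within that range.

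Of 12 output and feedback genes of ERK, 1 was called higher and 4 lower with GSK-J4 (3.96% and 9.07% over all genes). Dusp4, a nuclear MAP kinase phosphatase, rose by 1.48 ± 0.21 (adjusted p = 0.000974), while the transcription factor Etv1 (-2.63 ± 0.35, adjusted p = 0.000688), the cyclin Ccnd1 (-1.58 ± 0.30, adjusted p = 0.00543) and the feedback inhibitor Spry4 (-1.50 ± 0.41, adjusted p = 0.0361) fell. Of 21 upstream kinases and factors 1 was called higher, Map2k1 (MEK1), by 0.95 ± 0.22 (adjusted p = 0.0186), and none lower.

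Of 10 cytoskeletal targets of serum response factor none was called higher and 6 lower with GSK-J4, where 3.96% of all genes were called higher and 9.07% lower. Actb (beta-actin) had 1121 ± 172 CPM with GSK-J4 and 2311 ± 250.1 CPM in Mettl3 KO (log2 fold change -1.01 ± 0.17, adjusted p = 0.00292), and Vcl (vinculin) had 78.5 ± 16.8 CPM with GSK-J4 and 205 ± 6.31 CPM in Mettl3 KO (-1.35 ± 0.20, adjusted p = 0.00145). Actg1 (gamma-actin) fell by 1.12 (adjusted p = 0.0154). Myl9 had no read in the GSK-J4 libraries and 8.32 ± 3.59 CPM in Mettl3 KO. Of 9 genes known as AP-1 targets none was called higher and 3 were lower, Timp1, Plau and Mmp3, in the same libraries in which Jun, Junb and Fosl1 mRNA were higher. Timp1, an inhibitor of matrix proteases, had 75.8 ± 22.0 CPM with GSK-J4 and 280.3 ± 101 CPM in Mettl3 KO (log2 fold change -1.85 ± 0.32, adjusted p = 0.00315). Plau (urokinase) fell by 4.44 (adjusted p = 0.00650) and Mmp3 (stromelysin-1) fell by 5.47 on the log2 scale (adjusted p = 0.00884). Mmp3 had 17.0, 0.407 and 0 CPM with GSK-J4, and its log2 fold change was -9.92 without replicate 1, when 5 of the 9 AP-1 targets were called lower. The number of all genes called in that fit, of 18894 tested, lies within the 1032 to 3061 given above. Mesenchyme marker mRNA was lower in the same libraries, as given above, and its part in these falls was not tested.

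Of 8 heat shock genes 4 were called higher and none lower with GSK-J4, where 3.96% of all genes were called higher and 9.07% lower. Dnajb1 had 145 ± 29.3 CPM with GSK-J4 and 52.6 ± 1.35 CPM in Mettl3 KO (log2 fold change 1.49 ± 0.21, adjusted p = 0.00116), and Hsp90aa1 rose by 1.56 ± 0.22 (adjusted p = 0.000899). Hspa1a and Hspa1b, near-identical copies whose reads the counting may split, had 577, 55.5 and 40.8 CPM and 1123, 108 and 210.3 CPM with GSK-J4, with replicate 1 again the highest. Their log2 fold changes against Mettl3 KO were 4.33 for Hspa1a and 4.78 for Hspa1b, and 1.97 and 3.05 without replicate 1. Of the 5 genes tested of the ATF4 stress response, 2 were called higher, Atf4 itself (711 ± 106 CPM with GSK-J4 and 289.6 ± 42.4 CPM in Mettl3 KO, adjusted p = 0.00146) and Sesn2 (adjusted p = 0.00587), and none lower. Of 6 factors that bind AU-rich mRNA, Zfp36l1, which destabilises such mRNAs, fell by 2.23 on the log2 scale (adjusted p = 0.000683) and Elavl1 (HuR), which protects them, rose by 0.74 ± 0.22 (adjusted p = 0.0474). That call of Elavl1 was lost without GSK-J4 replicate 1 (0.43, adjusted p = 0.194), and Elavl1 was not called against control (adjusted p = 0.0919). The counts of the heat shock list were the same without GSK-J4 replicate 1.

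In the Mettl14 line edgeR called no gene of any of the 8 lists. For GSK343 against Mettl14 KO, 797 of all 13882 genes had an unadjusted p under 0.05. Of the 38 other immediate early genes 5 did, and the median log2 fold change of the 38 was 0.15 (-0.03 over all genes). In the same comparison 3 of 8 heat shock genes and 2 of 6 factors that bind AU-rich mRNA had an unadjusted p under 0.05. So did 1 of 12 ERK output genes, 1 of the 9 cytoskeletal targets tested and 1 of 9 AP-1 targets. None of the upstream or ATF4 lists did. Over the 8 lists 0 to 2 genes of a list did so for Mettl14 KO against control (208 of all genes). For GSK343 against control 0 to 3 did (602 of all genes). Zfp36, which encodes tristetraprolin and is itself an immediate early gene, had 30.4, 30.1 and 37.7 CPM with GSK343 and 14.5, 9.19 and 6.14 CPM in Mettl14 KO, without overlap (log2 fold change 1.62 ± 0.41, adjusted p = 0.248). Arc had 5.03, 4.95 and 0 CPM with GSK343 and 17.7, 8.73 and 19.3 CPM in Mettl14 KO (-1.85 ± 0.59, adjusted p = 0.589). Between the line controls Ccn2 was lower in the Mettl14 line (-1.37 ± 0.25, adjusted p = 0.00522), while Nfkbia (2.16 ± 0.41, adjusted p = 0.00618) and Ptgs2 (1.75 ± 0.40, adjusted p = 0.0305) were higher, as Ier3 was. The AP-1 targets Mmp3 (4.09 ± 0.72, adjusted p = 0.00324) and Mmp13 (3.83 ± 0.45, adjusted p = 3.15e-05) were also higher there. Mmp9 showed the largest gap of the named genes, with 1381, 1808 and 1365 CPM in Mettl14 controls, against 3.53, 1.89 and 7.19 CPM in Mettl3 controls (8.49 ± 0.82, adjusted p = 2.42e-06). Etv1 was higher in the Mettl14 line as well (1.24 ± 0.25, adjusted p = 0.0117).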

How the data were processed

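Poly(A) RNA of 18 embryoid body libraries was measured by stranded RNA-seq, per the labels' protocols. The deposited values are raw read counts per gene; per the submitters' processing notes the authors used CASAVA, Trimmomatic 0.38, HISAT2 2.1.0, HTSeq and the mm10 build. Which annotation release was counted, and whether strand was used, is not stated there. Of 54446 gene identifiers 54409 matched a symbol in GENCODE M21. Each line was fitted by itself and all 18 libraries for comparisons across lines, with edgeR 4.0.16 (filterByExpr, TMM, quasi-likelihood test, R 4.3.3) and Benjamini-Hochberg adjustment over all genes tested; every adjusted p is from edgeR unless DESeq2 (1.42.0) is named. Levels are TMM-scaled CPM, and CPM per kb divides by exon length. Floors of 3 counts cover counting error only. The steps were tested on simulated counts. Promoters came from RefSeq (GRCm38.p6), where 7 of the 10 members had an entry.

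The members and all other gene lists were chosen with earlier results of these data known. Named are all 10 members, of each other list up to 4 called genes with the smallest p (otherwise the 2 with the smallest p), Mettl14, Mettl3 and the 5 genes most like Fos; Socs3 was named after its value was seen, as the only lower call of its list. Alternatives were a replicate block, testing all genes unfiltered, RLE size factors, DESeq2, other sets of libraries and leaving out each library. Same-numbered libraries did not deviate together (correlations of deviations -0.0847 to 0.0691), and the main fits did not pair them. Such values do not settle whether they were grown or prepared together. Ddit3 was not used.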

Additional observations from a re-analysis of the deposited data

Results flagged for a closer look

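The effect of the inhibitor on Junb differed between the lines, and this difference itself was tested as an interaction in the fit of all 18 libraries. GSK343 in Mettl14 KO minus GSK-J4 in Mettl3 KO gave -1.64 ± 0.37 on the log2 scale (edgeR adjusted p = 0.00585; range over the settings tried 0.000122 to 0.0279). All 3 GSK-J4 libraries were above all 3 Mettl3 KO libraries for Junb, while the GSK343 and Mettl14 KO libraries overlapped. Junb is from a list drawn up with the changes of both lines known, and 10.2% of all genes were called in this contrast, so its difference is a description. The compound, the line and the deleted gene changed together and cannot be told apart.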

How the results depend on the processing

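A called single-gene change counted as kept if its direction and call stayed. One not called counted as kept if it stayed so and within the spread between replicates, and its sign was not checked. All 90 were kept with RLE size factors, 88 of 90 with DESeq2, 87 of 90 with no filter on low counts and 86 of 90 with a replicate block. With the block Fosl1 lost a call, and Fos, Dusp1 and Atf3, none of them called, moved between the line controls. The block was coded within each line, so that contrast took the Mettl14 line at replicate 1 and the Mettl3 line at replicate 3. It did not compare line means, so these moves do not show what blocking does. For GSK343 against Mettl14 KO, 4 genes were called, against 57 by DESeq2, 1 with RLE size factors, 50 with no filter, 1 with a replicate block, 2 without both shallowest libraries and 0 in the fit of all 18 libraries, and 1 of the 10 members (Fos) was called by DESeq2 and 1 with no filter. For GSK343 against control the 23 genes became 68 by DESeq2, 63 with no filter, 37 without the shallowest libraries, 2 with all 18 libraries and 35 with the 2 groups alone. For Mettl14 KO against control 0 became 15 with no filter. For Mettl3 KO against control 0 became 32 by DESeq2, 6 with no filter and 2 with the 2 groups alone. For GSK-J4 against Mettl3 KO the 2186 genes became 4431 by DESeq2, 1407 with the replicate block, 3373 with all 18 libraries and 977 with the 2 groups alone, and against control the 1916 became 4360, 1256, 3155 and 887 in the same order. Between the line controls 149 became 312 by DESeq2 and 280 with no filter. The 51 with the block rest on the replicates named above and not on line means, so they do not show what blocking does. The difference of the knockout effects gave 20 genes by DESeq2 and 13 with no filter, against 0. The difference of the inhibitor effects gave 2516 genes by DESeq2, against 1668, called 2 members with no filter (Junb and Egr1), against 1, and had a member median of 0.18 with the replicate block, against -0.02. The causes were not tested. Whether same-numbered libraries belong together is not known, and the block lost the call of Fosl1 for GSK-J4 against Mettl3 KO (edgeR adjusted p = 0.0676, and 5.50e-05 to 0.154 over all 12 settings).

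With 1 library left out, genes called ran from 0 to 7 for Mettl14 KO against control, 4 to 28 for GSK343 against control, 0 to 14 for GSK343 against Mettl14 KO, 888 to 2798 for GSK-J4 against control, 1032 to 3061 for GSK-J4 against Mettl3 KO, 89 to 112 between the line controls and 1210 to 2541 for the difference of the inhibitor effects. Members called ran from 1 (without Mettl3 KO replicate 2) to 7 (without GSK-J4 replicate 1) for GSK-J4 against Mettl3 KO, 2 to 3 for GSK-J4 against control and 1 to 5 for the difference of the inhibitor effects. The member median ran from -0.25 to 0.02 for Mettl14 KO against control, 0.34 to 0.54 for GSK343 against control, 0.41 to 0.61 for GSK343 against Mettl14 KO, -0.031 to 0.11 for Mettl3 KO against control, -0.039 to 0.60 for GSK-J4 against control, -0.13 to 0.64 for GSK-J4 against Mettl3 KO, -0.16 to 0.16 between the line controls, -0.27 to -0.04 for the difference of the knockout effects and -0.27 to 0.20 for that of the inhibitor effects. Fosb changed sign with GSK-J4 when replicate 1 was left out, to -2.91 against Mettl3 KO and -2.84 against control, and ran up to 0.61 and 0.69 with another library left out. The counts of the 8 pathway lists without GSK-J4 replicate 1 were chosen after seeing the data. Depth limits Fos, Fosb and Atf3 in the shallow replicate 3 libraries of GSK343 and Mettl14 KO, where a floor of 3 counts lies at 4.35 and 2.63 CPM.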
